A study of Mus musculus with 4 samples.

Results

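The MAP kinase phosphatases of the Dusp family and a set of short-lived feedback transcripts were followed in naive helper T cells of mice with and without a T cell deletion of furin, as labelled. The set comprised 10 genes, namely Dusp1, Dusp2, Dusp5, Dusp6, Dusp10, Ppp1r15a, Ier2, Zfp36, Btg2 and Klf6. They were taken as every probe set that the array annotation assigns to 1 of these symbols alone, which gave 16 probe sets of 45037, and all 16 passed the filter on low signals that left 22518 probe sets and 10211 genes. The genes were chosen by their function and with the knockout against wild-type differences in these same arrays already known, so those differences are given below as a description, with no test.

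Naive CD4+ CD62L+ CD44- T cells were sorted from mice aged 10 to 11 weeks. The group labelled knockout carried CD4-cre together with Fur flox/flox, and the littermate group labelled wild type carried Fur flox/flox without the recombinase, so the floxed allele was common to both. Cre driven by CD4 regulatory sequences acts mainly in cells of the T lineage, CD8 T cells included, and leaves furin in the other cells of the mouse. With 2 Affymetrix arrays for each group, 4 in all, precision is limited by their number. Nothing in the labels ties the arrays to separate mice, and p-values measure only the spread between arrays, which may be technical. Values are MAS5 signals, a linear brightness for each probe set. Differences are knockout minus wild type on the log2 scale after adding 15.3 to each signal, which compresses differences at low signals. They are followed by the standard error (SE) of a linear model without a block.

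The arrays differed more by their number in the labels than by genotype. Spiked-in hybridisation controls, which do not come from the cells, were brighter on array 2 of each group, by 6.25-fold in the wild type and 6.09-fold in the knockout. For Gapdh, the signal near the 3' end over that near the 5' end, a measure of RNA or cDNA integrity, was 4.09 on array 1 and 0.905 on array 2 of the wild type, and 3.35 and 0.934 in the knockout. Differences within the arrays numbered 1 and within those numbered 2 are therefore given beside the differences of the genes named. Furin gave 435.1 and 343.9 in wild-type cells and 391.4 and 446.9 in knockout cells. The labels do not say which exons were removed, so its single probe set checks neither the deletion nor the labels. All 7 matched markers of naive CD4 T cells, of 11 listed, namely Cd3d, Cd3e, Cd3g, Cd4, Il7r, Ccr7 and Lef1, were bright, with no signal under 2974.4 on any array.

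MAP kinases carry signals from the T cell receptor, cytokines and stress to the nucleus, and dual-specificity phosphatases switch them off by removing phosphate from both the threonine and the tyrosine of the activation loop. Many of these phosphatases are themselves transcribed in response to the kinases they inactivate, which makes a negative feedback loop. Immediate early transcripts such as Ier2, Zfp36, Btg2 and Klf6 are made without new protein synthesis and are degraded quickly, so that their level follows recent signalling or stress. In T cells several of them are induced when the receptor is stimulated. Ppp1r15a works in a parallel loop, in which stress blocks translation through eIF2alpha and the product of Ppp1r15a lifts the block.

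The members fell into 3 sets by their differences. Dusp1 and Ppp1r15a were several-fold higher in the knockout arrays, Ier2, Zfp36 and the brighter probe set of Btg2 were modestly higher, and Dusp2, Dusp5, Dusp6, Dusp10 and Klf6 showed no common direction. With each gene represented by its brightest probe set, 5 of 10 genes were higher within both array numbers, 1 was lower within both and 4 had opposite signs. Over all 10211 genes, 27.7% were higher and 27.2% lower within both numbers. Both knockout arrays lay above both wild-type arrays in 6 of the 16 probe sets, against 7.62% of all kept probe sets, and below them in 1, against 9.54%. Nothing is read from these counts, since the members were chosen on the same contrast. The median difference over the 10 genes was 0.36 (0.63 within arrays numbered 1 and 0.29 within those numbered 2), and over all genes it was -0.002.

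**Figure D1:**
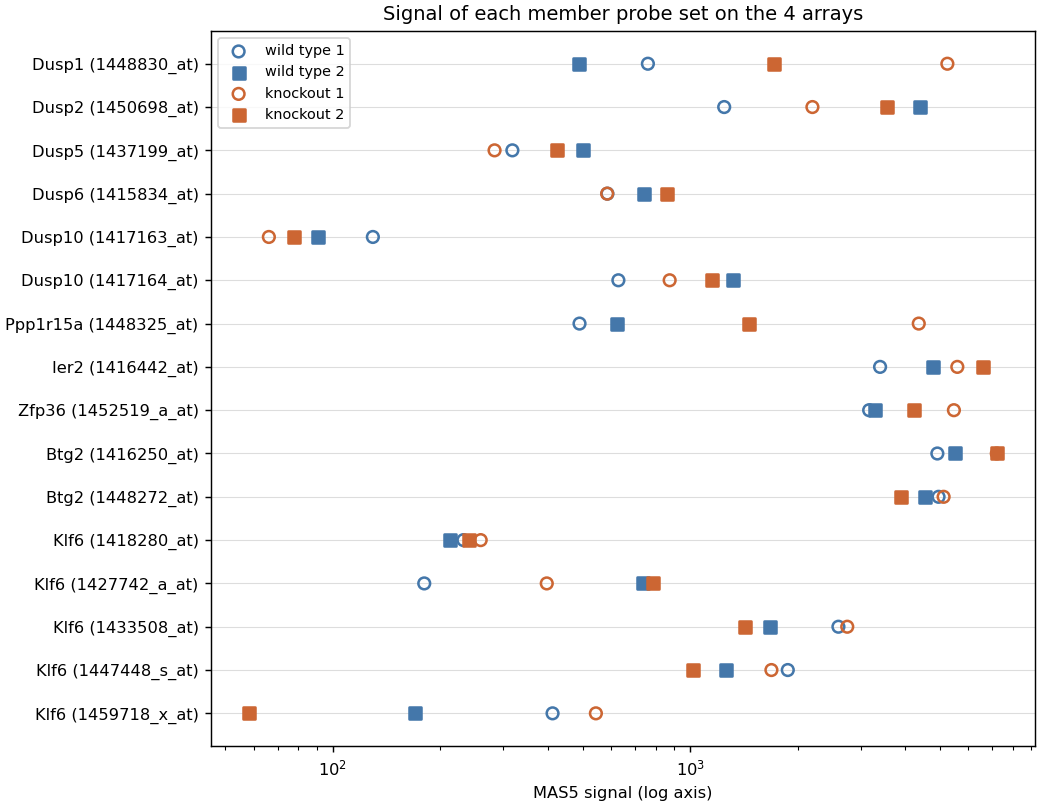
MAS5 signal on a log axis for each of the 16 probe sets of the 10 genes, with wild-type arrays in blue and knockout arrays in orange, open circles for arrays numbered 1 and filled squares for those numbered 2. Dusp1 and Ppp1r15a have both orange points well to the right of both blue points, whereas for Dusp2 and most Klf6 probe sets circles and squares separate more than colours do.

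Dusp1, also called MKP-1, is a nuclear phosphatase of p38, JNK and ERK that is induced by stress, growth signals and glucocorticoids. Its signal was 761.6 and 487.3 on wild-type arrays 1 and 2, and 5247.2 and 1711.7 on knockout arrays 1 and 2. Both knockout arrays lay above both wild-type arrays, the lowest knockout signal being 2.25 times the highest wild-type signal, and knockout array 1 stood highest. The difference was 2.27 (SE 0.64), with 2.76 within arrays numbered 1 and 1.78 within arrays numbered 2, or ratios of 6.89 and 3.51 on the signal scale. Without knockout replicate 1 the difference was 1.47, and without knockout replicate 2 it was 3.07. Ordered from the highest difference down, Dusp1 stood at rank 27 of 22518 probe sets.

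Ppp1r15a, known as GADD34, directs protein phosphatase 1 to eIF2alpha and so restores protein synthesis after the integrated stress response. Signals were 490.2 and 625.5 in the wild-type arrays and 4363.7 and 1462 in the knockout arrays. As for Dusp1, the groups did not overlap and knockout array 1 stood highest, with the lowest knockout signal 2.34 times the highest wild-type signal. The difference was 2.16 (SE 0.61), with 3.11 and 1.21 within arrays numbered 1 and 2, and it ranked 30 of 22518 probe sets. It was 1.38 without knockout replicate 1 and 2.94 without knockout replicate 2. On knockout array 2 the signal of Ppp1r15a was 0.335 times that on knockout array 1 and that of Dusp1 0.326 times, while between the wild-type arrays the corresponding ratios were 1.28 and 0.640. Whether the knockout effect of either gene differed between array numbers was not tested, since each number holds 1 array per group.

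Ier2, a nuclear immediate early protein, had signals of 3400.7 and 4798.4 in the wild-type arrays and 5594.9 and 6597.9 in the knockout arrays. The groups were separate but close, with the lowest knockout signal 1.17 times the highest wild-type signal. The difference was 0.59 (SE 0.36), with 0.72 and 0.46 within the array numbers. Zfp36, or tristetraprolin, binds AU-rich elements in the tails of short-lived mRNAs and recruits the deadenylation machinery to them, its own transcript included. It gave 3169.6 and 3298.5 in the wild-type arrays and 5472.9 and 4223.4 in the knockout arrays. The wild-type arrays were nearly equal and both knockout arrays stood above them, knockout array 1 the higher. The difference was 0.57 (SE 0.34), with 0.79 and 0.36 within the numbers.

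Btg2, an antiproliferative partner of the CCR4-NOT deadenylase that is associated with T cell quiescence, was read by 2 probe sets that disagreed. The brighter had 4919.3 and 5502.5 in the wild-type arrays and 7216.1 and 7232.1 in the knockout arrays. These groups did not overlap, the knockout arrays were alike, and the difference was 0.47 (SE 0.32), with 0.55 and 0.39 within the numbers. The other had 4957 and 4533.7 against 5121.6 and 3894, so that its groups overlapped, and its difference was -0.09 (SE 0.34), with 0.05 and -0.22 within the numbers. With the mean of both probe sets Btg2 was at 0.19.

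For these 5 genes, with Btg2 read by its brighter probe set, the difference was larger within arrays numbered 1 than within arrays numbered 2. It stayed above 0 whichever array was left out. That outcome was fixed in advance, since both knockout arrays lay above both wild-type arrays in each of these probe sets. Across all 10 genes, 9 had the higher signed difference within arrays numbered 1, the exception being Dusp6. The share over all genes was not counted and the members were chosen on these differences, so nothing is read from this. Over all genes the median difference was 0.02 within arrays numbered 1 and -0.01 within those numbered 2.

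**Figure D2:**
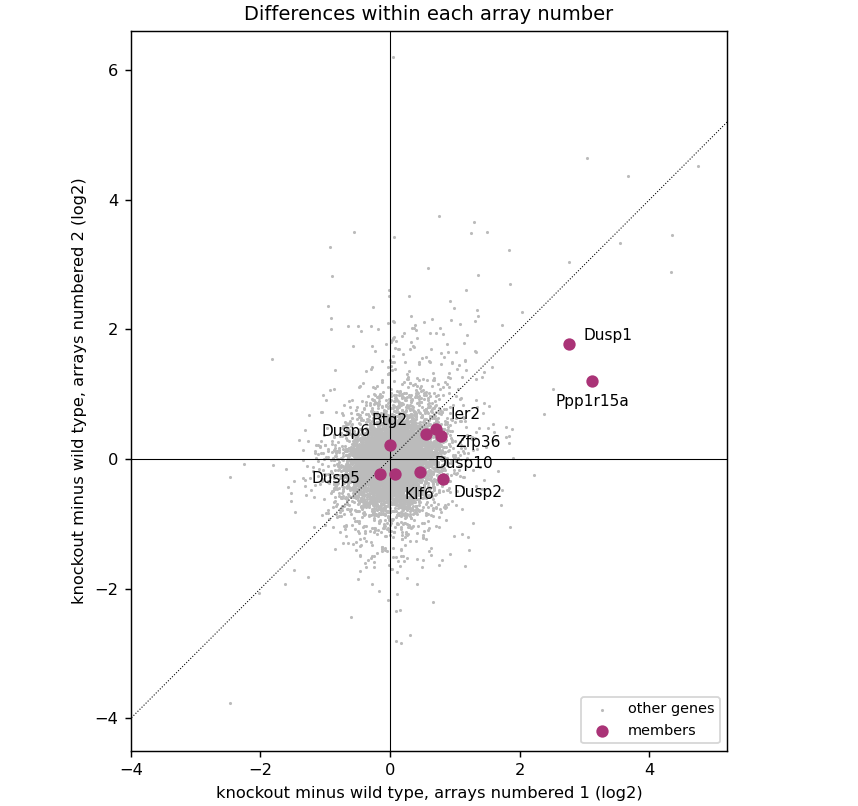
Difference between knockout and wild type on the log2 scale within arrays numbered 1 (horizontal axis) and within arrays numbered 2 (vertical axis), each gene shown by its brightest kept probe set, members in purple and the other genes in grey, with equality as a dotted line. Dusp1 at 2.76 and 1.78 and Ppp1r15a at 3.11 and 1.21 stand far from the grey cloud, and the other 8 members lie within or at the edge of it.

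The remaining phosphatases did not follow Dusp1. Dusp2, or PAC-1, is a nuclear phosphatase first described in activated lymphocytes. Its signals were 1245.3 and 4389.3 in the wild-type arrays and 2198.9 and 3561.4 in the knockout arrays, so that both extremes were wild-type arrays. The difference was 0.26 (SE 0.70), made of 0.81 within arrays numbered 1 and -0.30 within arrays numbered 2. Dusp5, a nuclear phosphatase specific for ERK, had 318 and 501 in the wild-type arrays and 283.5 and 423.4 in the knockout arrays. The groups overlapped and each knockout array was slightly below the wild-type array of its number, at -0.16 and -0.23 (difference -0.20, SE 0.42).

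Dusp6, or MKP-3, is the cytoplasmic ERK phosphatase and a widely used readout of ERK activity. Signals of 586.7 and 741.1 in the wild-type arrays stood against 585.7 and 862.9 in the knockout arrays. The arrays numbered 1 were thus nearly identical, and the difference was 0.11 (SE 0.38), with -0.002 and 0.22 within the numbers. Dusp10, or MKP-5, acts on JNK and p38. Its brighter probe set gave 629.7 and 1321.9 in the wild-type arrays and 876.3 and 1154.5 in the knockout arrays, an overlap with a difference of 0.14 (SE 0.48), or 0.47 and -0.19 within the numbers. Its dim probe set was the only member probe set with both knockout arrays below both wild-type arrays, at 66.2 and 77.8 against 129.4 and 90.8, a difference of -0.51 (SE 0.35), or -0.83 and -0.19 within the numbers. With the mean of both probe sets Dusp10 was at -0.19, the opposite sign to the brighter one.

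Klf6, a zinc finger factor of the Krüppel-like family, was measured by 5 probe sets. The brightest had 2600.2 and 1668.4 in the wild-type arrays and 2752.5 and 1422.8 in the knockout arrays. Arrays numbered 1 were high and arrays numbered 2 low in both groups, and the difference was -0.07 (SE 0.48), with 0.08 and -0.23 within the numbers. Over the 5 probe sets the difference ran from -0.47 (0.39 and -1.33 within the numbers) to 0.58 (1.08 and 0.09). Only 1 of them had separate groups, at 259.3 and 240.4 in the knockout against 232 and 213.4 in the wild-type arrays, a lowest knockout signal 1.04 times the highest wild-type one.

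For Dusp2, Dusp5, Dusp6, Dusp10 and Klf6 the sign of the difference turned when 1 array was left out, which also leaves the array numbers unbalanced. Dusp2 ran from -0.65 without wild-type replicate 1 to 1.16 without wild-type replicate 2, and Dusp5 from -0.51 to 0.12 with the same arrays left out, as did Dusp10 from -0.39 to 0.66. Dusp6 ran from -0.17 without knockout replicate 2 to 0.38 without knockout replicate 1, and Klf6 from -0.55 without knockout replicate 1 to 0.40 without knockout replicate 2.

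The difference between array numbers was tested with genotype as a term in limma and Benjamini-Hochberg adjustment over all 22518 probe sets. The genes were not chosen by their level on either array number. The knockout differences known at the choice were, however, those within each number. A high knockout array 1 therefore enters both the choice and this test, and the p-values of the members are not independent of the choice. Of the 16 member probe sets, 2 were higher on arrays numbered 2, or 12.5% against 19.5% of all probe sets. A further 4, or 25% against 15.1%, were lower there. Dusp2 was higher by 1.25 (SE 0.30, limma adjusted p = 0.0290), with 1.80 in the wild-type and 0.69 in the knockout arrays. Dusp1 was lower, at -1.12 (SE 0.28, limma adjusted p = 0.0318), with -0.63 in the wild-type and -1.61 in the knockout arrays. Klf6 supplied the other 4 calls in both directions. The probe set with the highest knockout difference was higher on arrays numbered 2 by 1.45 (limma adjusted p = 0.0162), while the brightest, the next brightest and the one with the lowest knockout difference were at -0.79, -0.64 and -2.07 (limma adjusted p = 0.0318, 0.0486 and 0.0173). Opposite shifts in probe sets of 1 gene move with the change in the Gapdh 3' to 5' ratio, and the part of RNA or cDNA integrity in them was not tested. Ppp1r15a, at -0.61 (SE 0.45, limma adjusted p = 0.322), did not pass, its wild-type arrays differing by 0.34 and its knockout arrays by -1.57. With no filter on low signals limma called 0 of 45037 probe sets for array number at an adjusted p of 0.05 (smallest 0.104), with 11679 at an unadjusted p under 0.05.

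**Figure D3:**
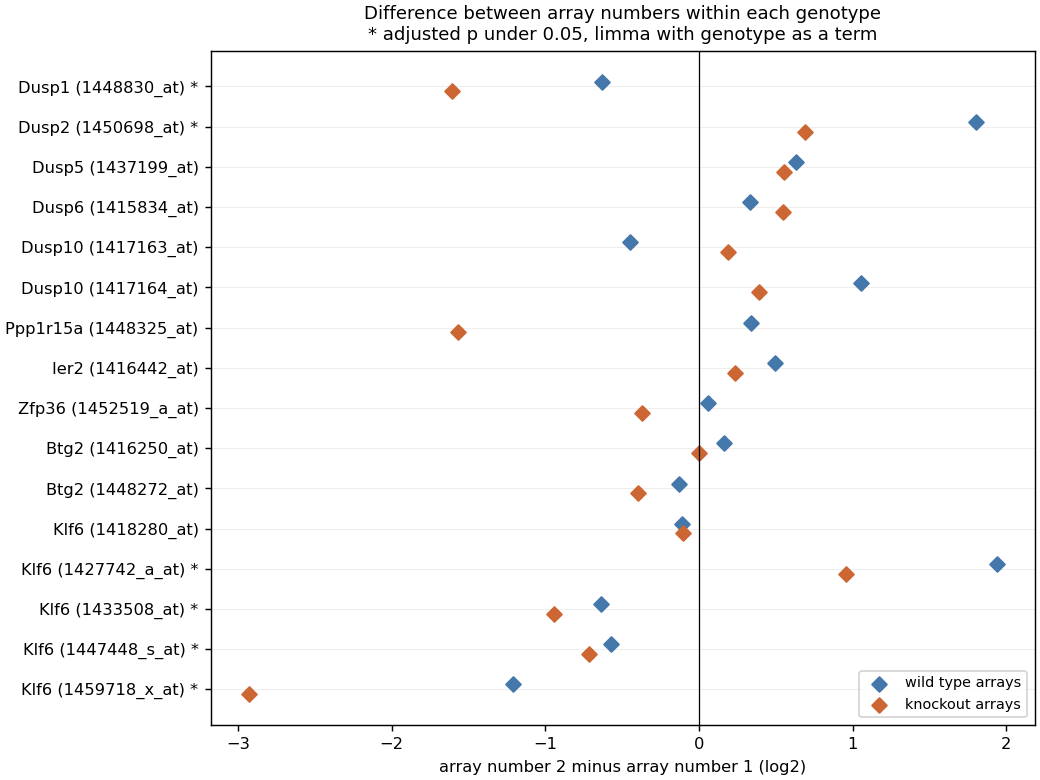
Log2 difference between array number 2 and array number 1 within the wild-type arrays (blue) and within the knockout arrays (orange) for each member probe set, with an asterisk for the 6 that passed limma at an adjusted p of 0.05. Dusp2 and one Klf6 probe set lie to the right of 0, Dusp1 and the other marked Klf6 probe sets to the left, and Ppp1r15a lies on opposite sides in the 2 genotypes.

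The promoters of the genes were searched for known response elements, and those with a CRE or a CArG box are shown so that these elements can be seen in place. RefSeq promoter sequences of build GRCm38.p6 were matched for 9 of the 10 genes, all but Ier2. In the 250 bases before each gene start, 11 motifs were searched on both strands. The palindromic cAMP response element, CRE (TGACGTCA), which CREB and ATF factors and some AP-1 dimers are known to bind, was found in 3 of the 9, namely Dusp1, Ppp1r15a and Btg2, and in 1.55% of 32851 promoters in the table. Counted from the gene start, it begins at base -143 in Dusp1, -12 in Ppp1r15a and -166 in Btg2. The CArG box, the site of serum response factor, was found in Zfp36 and Dusp5, and in 1.47% of all promoters, Dusp5 holding 2 in a row. The sequences of these 5 promoters are shown 5′ to 3′ on the strand of the gene, with capitals for CRE, the CRE core (TGACG, contained in every full CRE), CArG boxes and EGR sites (GCGNGGGCG).
Dusp1 (chr17:26508473-26508722, minus strand): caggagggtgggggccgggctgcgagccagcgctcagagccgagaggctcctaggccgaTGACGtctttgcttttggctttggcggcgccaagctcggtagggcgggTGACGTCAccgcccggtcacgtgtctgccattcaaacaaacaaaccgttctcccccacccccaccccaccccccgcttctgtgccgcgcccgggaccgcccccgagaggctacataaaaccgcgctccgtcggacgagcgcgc
Ppp1r15a (chr7:45526269-45526518, minus strand): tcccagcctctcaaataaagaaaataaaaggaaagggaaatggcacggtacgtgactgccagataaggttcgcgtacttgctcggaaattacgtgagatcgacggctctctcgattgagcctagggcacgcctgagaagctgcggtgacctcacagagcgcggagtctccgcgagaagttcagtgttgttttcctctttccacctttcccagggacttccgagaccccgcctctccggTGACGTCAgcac
Btg2 (chr1:134079156-134079405, minus strand): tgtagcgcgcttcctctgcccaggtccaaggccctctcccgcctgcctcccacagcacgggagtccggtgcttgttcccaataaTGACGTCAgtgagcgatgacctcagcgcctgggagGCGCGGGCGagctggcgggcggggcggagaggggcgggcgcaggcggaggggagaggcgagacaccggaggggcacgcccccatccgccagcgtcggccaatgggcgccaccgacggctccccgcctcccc
Zfp36 (chr7:28379229-28379478, minus strand): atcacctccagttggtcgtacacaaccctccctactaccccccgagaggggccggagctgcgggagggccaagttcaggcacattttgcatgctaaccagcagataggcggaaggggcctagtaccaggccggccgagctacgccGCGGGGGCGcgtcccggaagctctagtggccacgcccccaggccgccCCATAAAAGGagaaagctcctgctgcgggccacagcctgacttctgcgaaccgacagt
Dusp5 (chr19:53528895-53529144, plus strand): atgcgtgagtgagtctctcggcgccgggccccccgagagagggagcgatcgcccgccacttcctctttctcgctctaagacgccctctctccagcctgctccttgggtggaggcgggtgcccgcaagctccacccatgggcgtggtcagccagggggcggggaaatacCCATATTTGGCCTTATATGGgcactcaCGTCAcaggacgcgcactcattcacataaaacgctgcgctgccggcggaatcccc

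The CRE core was present in 4 of the 9 promoters (17.8% of all), those with the full element and Dusp5. EGR sites were present in Dusp2, Zfp36 and Btg2 (4.70% of all), GC boxes (GGGCGG) in 7 (32.7% of all, the EGR site of Dusp2 overlapping a GC box) and CCAAT boxes (CCAAT) in 4 (33.8% of all). No match in these windows was found for AP-1 (TGANTCA, 6.75% of all), the NF-kappaB motif (3.90%), the ATF4 composite motif (TGATGNAA, 3.45%), a heat shock motif (GAANNTTC, 6.69%) or the TATA box (TATAAA, 12.4%). A matched motif is a run of letters and not an observed binding site, and no relation between motifs and the knockout differences was tested.

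Companion genes of the same or related pathways were then examined in 7 lists written with earlier results of these data known. Of 123 genes listed, 97 were measured. Limma without a block called 0 of the 97, as it did 0 of all 22518 probe sets (0%), where 145 probe sets had an unadjusted p under 0.05 and none of them represented a companion gene. With the array number as a block it called 6 of 22518 probe sets (0.0266%), again including 0 companion genes. With a trended prior added to the block it called 260 of 22518 probe sets and 2 of the 97 companions, Gadd45g and Ddit4. No result is read from these 2, since the lists were written with earlier results known. Within both array numbers 24 companions were higher and 28 lower, and their median difference was -0.002, as over all genes. Over all 10211 genes 27.7% were higher and 27.2% lower within both numbers, and the counts of each list below stand against these shares.

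Among other dual-specificity phosphatases, 2 of 10 were higher and 4 lower within both numbers, with a median difference of -0.23. The lower ones were led by Dusp16, a JNK phosphatase, at -0.96 (SE 0.49, -0.87 and -1.05 within the numbers), with signals of 131.5 and 74.3 on the wild-type arrays and 64.8 and 27.9 on the knockout arrays. Dusp9 was at -0.89 (SE 0.70, -0.95 and -0.84) and Dusp12 at -0.39 (SE 0.35, -0.50 and -0.29). None of the 10 came near the 2.27 of Dusp1, the highest being Dusp19, chosen after its value was seen, at 0.23 (0.37 and 0.09 within the numbers). The MAP kinase cascade itself had 5 of 26 genes higher and 8 lower within both numbers (median -0.07), with Map3k8, a kinase upstream of ERK, at 0.73 (SE 0.58, 0.40 and 1.07 within the numbers). Mapk7, which encodes ERK5, was at -0.44 (SE 0.35, -0.11 and -0.78) and Map3k7, which encodes TAK1, at -0.47 (SE 0.47, -0.78 and -0.16).

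The list named for eIF2alpha and the integrated stress response was broader than the pathway of Ppp1r15a and also held Gadd45a, Gadd45b and Gadd45g. It had 8 of 17 genes higher, Gadd45b and Gadd45g among them, and 3 lower within both numbers, with a median of 0.15. Both knockout arrays lay above both wild-type arrays in 5 of the 17 and below them in 0, against 7.62% and 9.54% of all kept probe sets. No result is read from these counts, since the list was written with earlier results known. Gadd45g, a stress-induced regulator of p38 signalling, was at 1.29 (SE 0.64), with 1.33 and 1.24 within the numbers, and both knockout arrays, at 229.7 and 539.7, lay above both wild-type arrays, at 82 and 219.3. With the replicate block and a trended prior its limma adjusted p was 0.00877. Sesn2, a stress-induced inhibitor of mTORC1, was at 0.96 (SE 0.54), with 0.05 and 1.87 within the numbers, and Ddit4, another such inhibitor, at 0.64 (SE 0.56), with 0.88 and 0.40 and a limma adjusted p of 0.0387 under the block and trended prior. The transcription factors Atf4 and Ddit3, chosen after their values were seen, were at 0.05 (0.23 and -0.14 within the numbers) and 0.15 (0.52 and -0.21). Ppp1r15b, the constitutive counterpart of Ppp1r15a, also chosen in that way, was at -0.26, with -0.26 and -0.25 within the numbers.

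Genes for AU-rich element binding and mRNA decay, the pathway of Zfp36, lay within a narrow band from -0.39 for Cnot3 (-0.46 and -0.32 within the numbers) to 0.23 for Elavl1 (0.40 and 0.06), with 3 of 19 higher and 9 lower within both numbers and a median of -0.05. Tial1 was at -0.25 (SE 0.35, -0.35 and -0.15). Only 3 relatives of Btg2 were measured, with a median of 0.03, and Btg1, a quiescence factor of T cells, was at -0.07 (SE 0.74, -0.08 and -0.06). In the KLF family 1 of 9 genes was higher and 3 lower within both numbers (median 0.03). Klf4 was at 1.10 (SE 0.69), mostly from arrays numbered 1 (1.84 against 0.36), Klf3 at -0.24 (SE 0.50, -0.29 and -0.19) and Klf7 at -0.28 (SE 0.32, -0.22 and -0.34). Other short-lived early transcripts had 5 of 13 higher and 0 lower within both numbers, with a median of 0.11. Rgs1 and Rgs2, regulators of G protein signalling, were at 0.66 (SE 0.34, 0.68 and 0.63) and 0.64 (SE 0.72, 1.20 and 0.09), and Tnfaip3, the NF-kappaB inhibitor A20, at 0.42 (SE 0.54, 0.52 and 0.31).

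**Figure D4:**
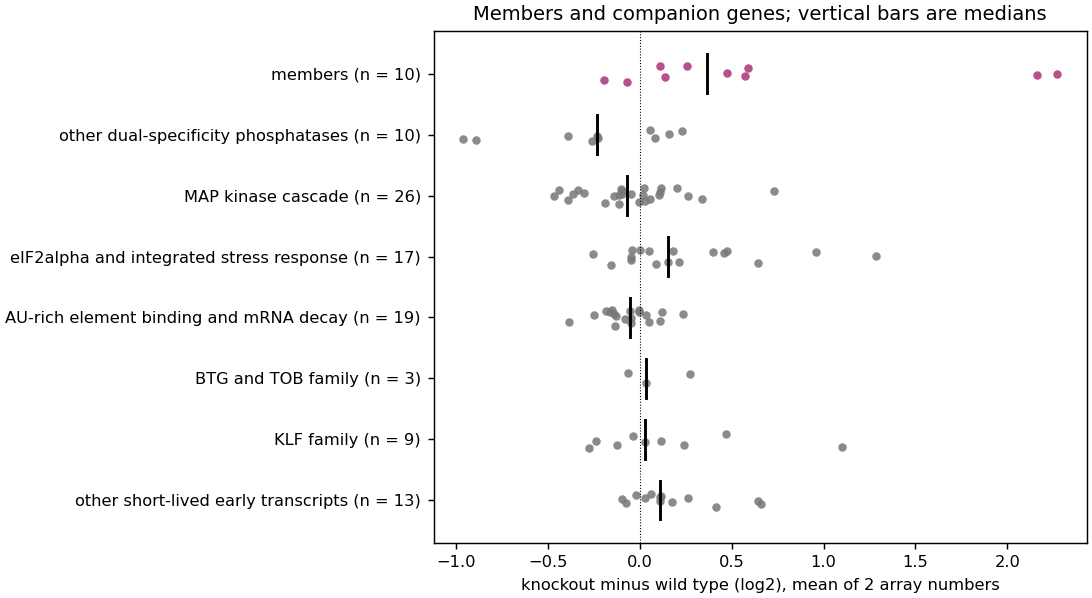
Difference between knockout and wild type on the log2 scale for the 10 members (purple) and for the genes of 7 companion lists (grey), 1 point per gene, with a vertical bar at each list's median. Dusp1 and Ppp1r15a lie beyond every companion gene, and the list medians run from -0.23 to 0.15 against 0.36 for the members.

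The genes whose pattern over the 4 arrays was most like that of Dusp1 were sought by the Euclidean distance between log2 values, each gene centred on its own mean, over 10201 other genes. Among the members Ppp1r15a was nearest, at 0.70, and the other 8 lay between 1.97 and 3.11. The nearest of the other genes were Dtl, an adaptor of a ubiquitin ligase, at 0.95, Gm10033 at 1.06, Gzma, a granule protease of cytotoxic cells, at 1.17, Gbp2, an interferon-inducible GTPase, at 1.18 and Klf4 at 1.20. Dtl had 57.4 and 22.6 in the wild-type arrays and 476.3 and 296.5 in the knockout arrays. Nearest to the mean profile of the 10 members were Klrg1, Id2, Zmynd8, Sap30 and Dock5, at distances from 0.08 to 0.13. Id2, an inhibitor of E protein transcription factors, had 1134.3 and 1523 in the wild-type arrays and 2048.7 and 1844.3 in the knockout arrays. With 4 arrays such likeness is a description of these samples.

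Markers of cells that the sort was meant to remove differed between the groups as well. Of 7 matched B cell markers (8 listed), 5 were higher and 0 lower in the knockout within both array numbers, against 27.7% and 27.2% of all genes. Their summed signal was 378.5 and 1474.7 in the wild-type arrays and 388.6 and 4101.6 in the knockout arrays. Of 10 myeloid markers, 8 were higher and 0 lower, with sums of 1317.8 and 3957 in the wild-type and 1958.1 and 12725.8 in the knockout arrays. These sums were highest on knockout array 2, whereas Dusp1, Ppp1r15a and Zfp36 were highest on knockout array 1 and Ier2 and Btg2 on knockout array 2. Within arrays numbered 1 the median marker difference was 0.22 for B cells and 0.65 for myeloid cells, and within arrays numbered 2 it was 1.36 and 1.11. S100a9, a neutrophil marker chosen after its value was seen, was at 1.7 on wild-type array 1, under the added 15.3, and at 26.4 on knockout array 1. Of the 10 myeloid markers, 2 lay under 15.3 on wild-type array 1 and 1 on knockout array 1. Of 6 matched CD8 T and NK cell markers (7 listed), 3 were higher and 2 lower within both numbers, with sums of 1912.6 and 2122.5 against 2326.2 and 2513.3. Within arrays numbered 1 and 2, Gzma was at 1.35 and 2.21, Nkg7 at 0.96 and 1.49, Cd8b1 at 0.32 and 0.02 and Cd8a at 0.08 and -0.60. Prf1 was at -0.18 and -0.29 and Ncr1 at -0.54 and -0.83. The 4 matched erythroid and platelet markers (6 listed) summed to 106.2 and 496.6 against 68.8 and 267.5. In such bulk samples fewer cells of a type and less RNA per cell cannot be told apart, and the part of other cells in the members' values was not tested.

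Among 6 markers of activated or memory T cells, 3 were higher and 2 lower within both numbers. Cd69, an early activation antigen, was at 0.76 and 0.12 within the numbers, Icos at 0.24 and 0.50 and Tnfrsf4 at -0.09 and 0.42. Cd44, which the sort selected against, was at -0.38 and -0.18, Il2ra, the alpha chain of the interleukin 2 receptor, at -0.57 and -0.28, and Mki67, a marker of dividing cells, at 0.30 and 1.70. The naive CD4 T cell markers had medians of -0.16 and -0.02 within the numbers, with 0 of 7 higher and 3 lower in both.

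**Figure D5:**
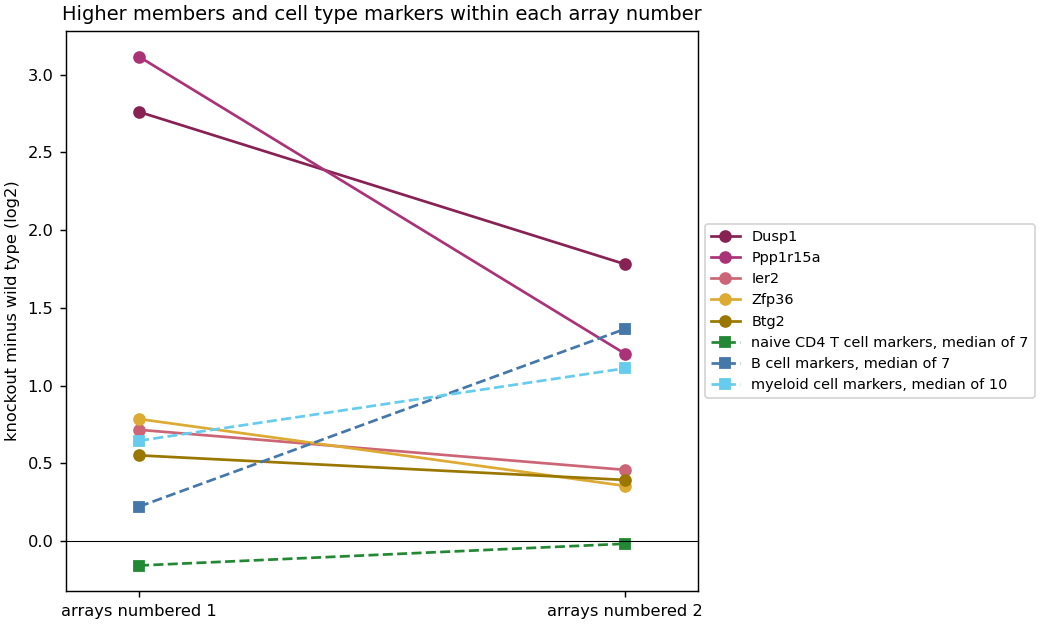
Difference between knockout and wild type on the log2 scale within arrays numbered 1 and within arrays numbered 2, for the 5 members that were higher in both (circles, solid lines) and for the median of 3 marker lists (squares, dashed lines). The differences of all 5 members were larger in arrays numbered 1 than in those numbered 2, while the B cell median went from 0.22 to 1.36 and the myeloid median from 0.65 to 1.11.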

How the data were processed

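Total RNA from sorted naive T cells was extracted with Trizol and 5 micrograms were labelled as biotinylated cRNA, per the labels' protocols. The authors deposited linear intensities, computed with MAS5 per the submitters' processing notes, which carry no version of it. All 4 columns had the same mean, 500.003, with 2% trimmed at each end. Detection calls were not used here, so how far a signal stood above background is unknown.

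Of 45101 probe sets, 64 controls were left out. Probe sets were named through a platform annotation, with 34741 of 34945 single symbols updated through a RefSeq gene table. Signals were transformed as log2(signal + 15.3), 15.3 being the 25% quantile of all values, and probe sets with a mean above the median of means were kept. Each gene was represented by its brightest kept probe set.

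Limma 3.58.1 in R 4.3.3 (lmFit, eBayes, two-sided) was fitted to all kept probe sets with Benjamini-Hochberg adjustment and a threshold of 0.05. The knockout fit had no block, and the array number fit included genotype. The fits were tested on simulated data. Named are all 10 members, up to 3 companions per list with the largest difference of equal sign in both array numbers, and the 5 genes nearest in pattern; others are said to be chosen after their values were seen. The members and lists were chosen with earlier results of these data known. Alternatives covered the pseudocount, filter, scaling, prior, array number as a block, probe set choice and each array left out.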

Additional observations from a re-analysis of the deposited data

How the results depend on the processing

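The difference between knockout and wild type of each of the 10 genes was recomputed under changes of pseudocount, filter, scaling and probe set choice. Of these 69 values, 68 moved by less than the spread between replicates, and the exception was Btg2, at 0.19 with the mean of its probe sets. Many of the values could not move. The filter leaves the value of a kept probe set unchanged, and 7 genes have only 1 probe set to average. The spread between replicates also holds the shift between array numbers, so little is read from this count. Leaving out arrays is not counted there, since with 2 arrays a group it cannot move a value beyond that spread. The only sign that turned with all arrays kept was that of Dusp10, also with the mean of probe sets, whereas 5 genes turned when an array was left out. The count of genes higher within both numbers stayed between 5 and 6 under these settings, and that of separated probe sets between 5 and 6. Looking at arrays numbered 1 alone, an alternative chosen after seeing the data, 8 genes and 12 probe sets were higher and the median difference was 0.63, against 6 genes, 8 probe sets and 0.29 in arrays numbered 2 alone. Over all genes these medians were 0.02 and -0.01. The shares of all genes and probe sets higher within 1 array number were not counted, and the members were chosen on these differences. Nothing is therefore read from these counts. With 1 array left out the median ran from 0.29 without wild-type replicate 1 to 0.63 without wild-type replicate 2. Both groups have arrays numbered 1 and 2, and no label names a shared animal or day. Over 22518 probe sets, deviations from the group mean correlated at 0.80 between arrays of the same number. With the replicate block limma called 6 probe sets for knockout against wild type where the fit without it called 0, and adding a trended prior to the block gave 260. Of the 97 companion genes 2, Gadd45g and Ddit4, were called with the block and a trended prior. For the array number, the filter mattered, with 0 of all probe sets and 0 of the members called when none was applied. Other alternatives gave 6492 to 10270 called probe sets and 4 to 9 of the members. Leaving out an array mixes genotype with array number. A count of 0 from so few arrays does not show that nothing differed.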

Other observations

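A search chosen after the values were seen listed the genes whose brightest probe set was higher in the knockout by over 1 on the log2 scale within both array numbers. There were 39 such genes, 2 of them members, and 11 had the larger difference within arrays numbered 1 and 28 within arrays numbered 2. Ordered by the excess of arrays numbered 1 over arrays numbered 2, the first 4 were Ppp1r15a (3.11 and 1.21), H3f3b, which encodes a replacement histone (4.33 and 2.88), Junb, an AP-1 subunit (2.52 and 1.08), and Dusp1 (2.76 and 1.78). At the other end stood S100a9, Lyz1, S100a8 and Gm4951, for which the value in arrays numbered 1 minus that in arrays numbered 2 ran from -2.37 for S100a9 to -1.61 for Gm4951. Jun and Hspa1a, with 4.74 and 4.51 and with 3.54 and 3.34, were alike in both array numbers. The difference between array numbers was not tested, since each holds 1 array of a group. The 2 members were chosen with these differences known, so nothing is read from their place in the order.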
